A study of Mus musculus with 10 samples.

Results

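The ribosome biogenesis and nucleolar genes described here are 40 genes whose products make ribosomal RNA, modify it or assemble the ribosomal subunits. They were chosen by symbol, with no measured value in the rule. Of the 33393 genes in the files, all 40 were present, each as 1 gene, and all 40 were among the 12874 genes that passed the filter on low values and were tested. Each was labelled protein-coding.

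Ribosomes are built in the nucleolus. RNA polymerase I transcribes the ribosomal DNA, small nucleolar ribonucleoproteins (snoRNPs) guide methylation and pseudouridylation of the transcript, and large complexes fold and cut it into the RNAs of the small and the large subunit. Blood stem cells are known for a low rate of protein synthesis, and this machinery is more active in cells that grow and divide.

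RNA was taken from bone marrow cells of C57BL/6 mice aged 8 weeks, sorted as CD34- HSCs, that is Lin- Sca-1+ c-Kit+ CD34- Flt3- hematopoietic stem cells. The 5 control libraries came from Reg1flox/flox mice and 5 libraries were labelled Vav1-iCre; Reg1flox/flox, called Reg1Δ/Δ. Both groups carry the floxed allele of the Regnase-1 gene (Zc3h12a), an RNase of the CCCH zinc finger family. Vav1-iCre expresses Cre recombinase in all blood cell lineages, so the deletion was not limited to stem cells, and the controls carried no Cre. Going by the sample names, 3 libraries per group belonged to a first experiment and 2 per group to a second one. The values are TPM, a relative abundance of each transcript corrected for its length, added up over the transcripts of each gene. Read numbers cannot be had from TPM, so the depth is unknown and no counting error is given. A fold change is the limma estimate of the label effect on log2(TPM + 1), adjusted for the experiment, and it understates the change of genes with low TPM. Adjusted p values (Benjamini-Hochberg) are over all 12874 genes, with a threshold of 0.05. The labels do not say whether each library came from a mouse of its own, so p values measure the spread between these libraries, which may be technical.

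Zc3h12a, the targeted gene, was not lower in the libraries labelled Reg1Δ/Δ. It was at 1.83, 1.28 and 1.60 TPM in the controls and 3.54, 2.08 and 2.51 TPM in the libraries labelled Reg1Δ/Δ of the first experiment, and at 1.48 and 6.07 TPM against 10.3 and 8.52 TPM in the second. All libraries labelled Reg1Δ/Δ were thus above all controls of their experiment, and the log2 fold change was 0.83 (SE 0.28, adjusted p = 0.0314). Its call was lost without control 2 or library 1 labelled Reg1Δ/Δ of the first experiment, or without either of the libraries labelled Reg1Δ/Δ of the second (adjusted p = 0.0595 to 0.0768). These values are per gene and give no exons, so they do not measure the deleted part and do not check the deletion. Directions are given by label throughout. Markers of stem cells went down with the label. Of 8 HSC markers, 7 were lower and none higher. Their summed level was 757 to 864 TPM in the controls and 185 to 562 TPM in the libraries labelled Reg1Δ/Δ of the first experiment. In the second it was 336 to 497 against 181 to 204 TPM, with no overlap in either. Procr, which encodes the endothelial protein C receptor, was at 28.9 TPM on average in the controls and at most 1.36 TPM in a library labelled Reg1Δ/Δ. Kit, whose product was a gate of the sort, was at 252 and 89.8 TPM.

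The members of the ribosome biogenesis group were mostly higher in the libraries labelled Reg1Δ/Δ. At an adjusted p under 0.05 by limma, 34 of the 40 were higher and none was lower. Over all 12874 tested genes 15.0% were higher and 37.9% lower. Over the 8100 tested genes whose mean TPM lay in the range of the members, 9.81 to 1585 TPM, 20.9% were higher and 29.9% lower. The median log2 fold change of the members was 0.57, a 1.48-fold change, against −0.25 for all tested genes and −0.084 for those of like mean TPM. Values ran from −0.12 for Utp20, which was above 0 after quantile normalization or median-of-ratios scaling, to 1.01 for Bysl, with standard errors between 0.09 and 0.28. The changes were thus small for each gene: 17 of the 34 called members rose by more than 1.5-fold and the other 17 by less, down to 1.24-fold for Pes1. As a share of all TPM, the sum of the members did not overlap between the groups. Together they took 0.479% ± 0.0216 (SD, n = 3) of the TPM in the controls and 0.717% ± 0.0312 (SD, n = 3) in the libraries labelled Reg1Δ/Δ of the first experiment. In the second the shares were 0.649% ± 0.0256 and 0.958% ± 0.0112 (SD, n = 2 each). The number of genes with a TPM of 1 or above moved with the label too. It was 14276 to 14307 in the controls and 12006 to 12048 in the libraries labelled Reg1Δ/Δ of the first experiment, and 13366 to 13717 against 11256 to 11398 in the second. Its part in the members' share was not tested.

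**Figure D1:**
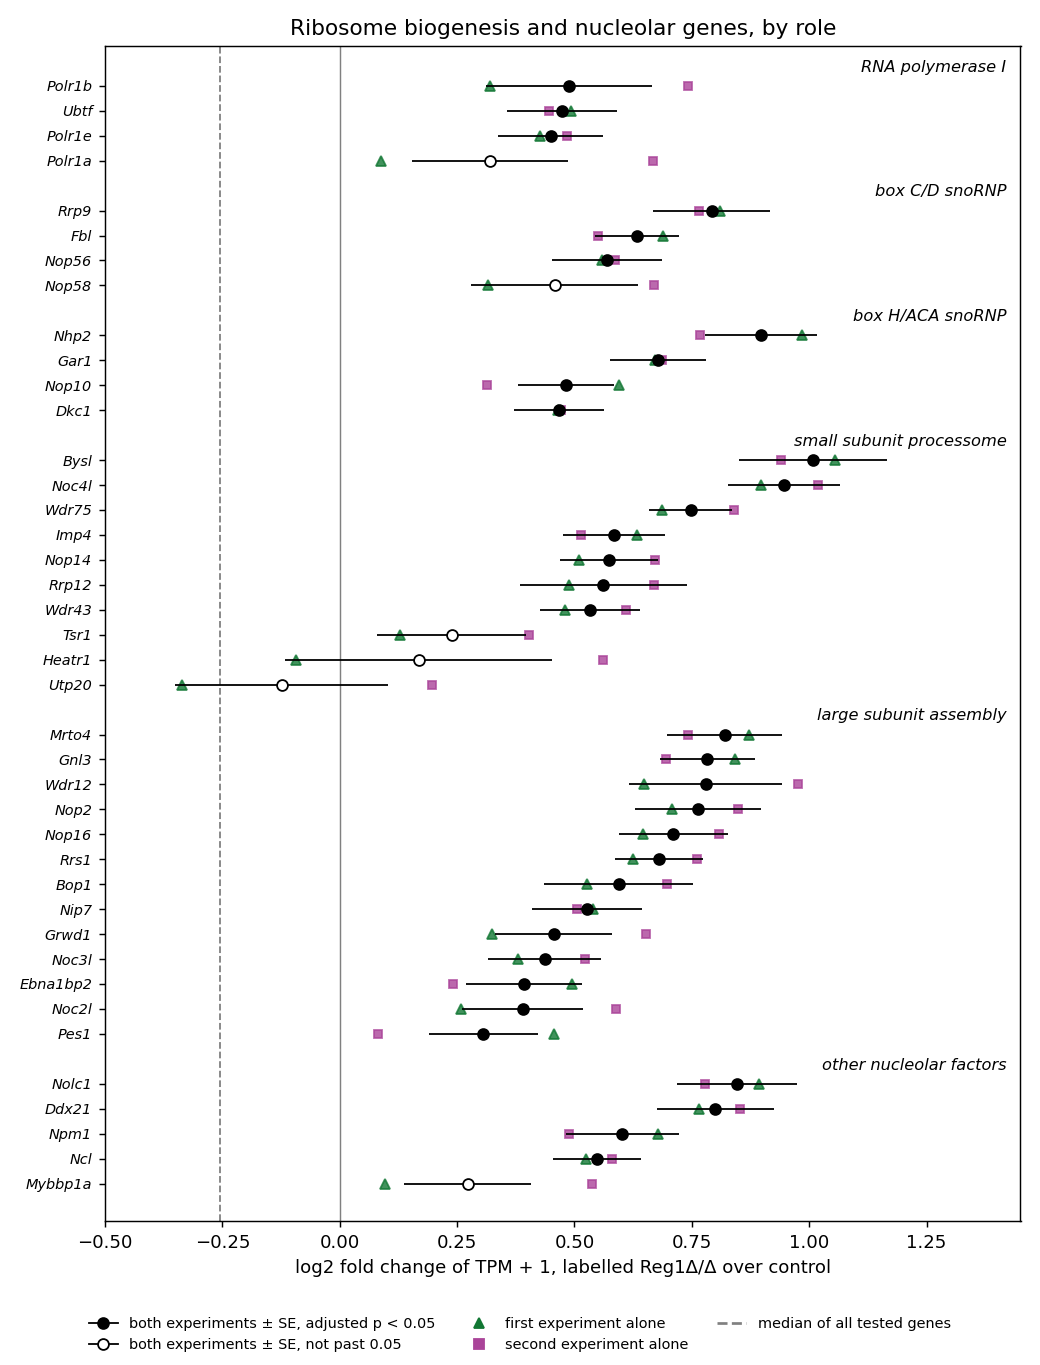
The log2 fold change of TPM + 1 of each of the 40 members, by role, with circles for both experiments together (bars, standard error), triangles for the first and squares for the second experiment alone. Only Utp20 lies below 0 with both experiments together, a sign that turns after quantile normalization or median-of-ratios scaling, and all 40 circles lie to the right of the dashed median of all tested genes at −0.25.

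In 27 of the 40 members, every library labelled Reg1Δ/Δ was above every control in both experiments, and in none was every one below. All 27 were among the 34 called higher. The groups were separated upward in this way in 12.7% of all tested genes. In the first experiment alone, 28 members were higher at an adjusted p under 0.05, against 12.0% of all genes, and the median was 0.53. The second experiment alone, with 2 libraries per group, gave 12 members higher, against 3.51% of all genes, and a median of 0.66. All 40 members had a log2 fold change above 0 in the second experiment and 38 in the first, Utp20 and Heatr1 being the others. Of all 12874 tested genes, 5105 were above 0 in the second and 4341 in the first. The difference of the effect between the experiments, tested as an interaction in limma, passed for 57 genes, 0.443% of those tested, and for none of the members. The lowest adjusted p of a member was 0.474, for Polr1a, and none had an unadjusted p under 0.05.

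**Figure D2:**
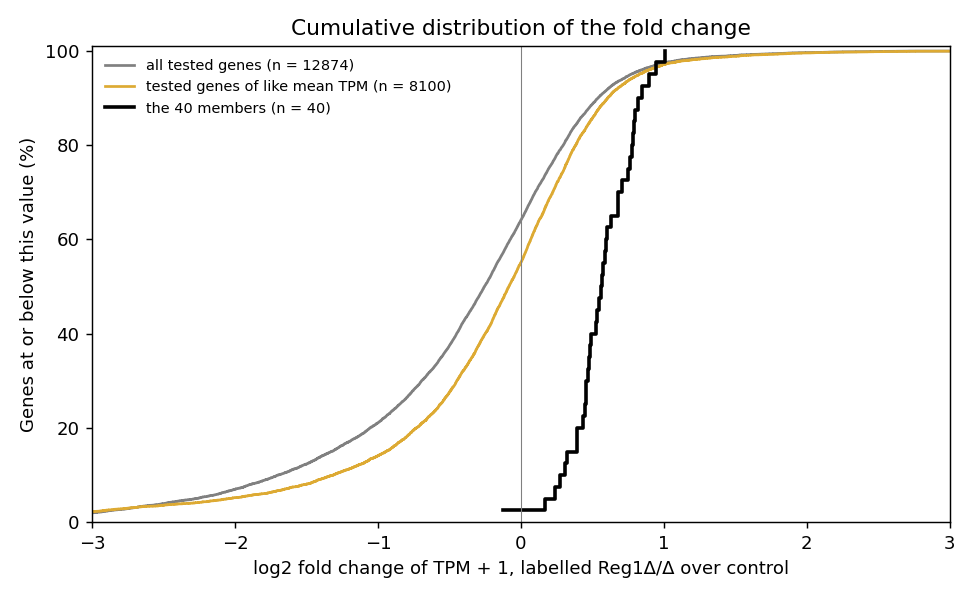
Cumulative share of genes at or below each log2 fold change of TPM + 1, for all 12874 tested genes (grey), the 8100 tested genes of like mean TPM (yellow) and the 40 members (black). The axis is drawn from −3 to 3 and leaves out the most extreme genes, and the curve of the members lies to the right of both others up to a value of 0.9.

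The median of all genes was itself below 0, so the size of the members' rise depended on the scale. Under median-of-ratios scaling the median of all genes was 0.05 and that of the members 0.91. With quantile normalization these were 0.14 and 0.60. The members' median thus lay 0.82 above the median of all genes as deposited, 0.86 above it after median-of-ratios scaling and 0.46 above it after quantile normalization. All 40 members lay above the median of all genes on each of these 3 scales. Among all tested genes, 1933 were called higher and 4880 lower as deposited, 3973 and 3425 after median-of-ratios scaling and 3861 and 2636 after quantile normalization.

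Markers of other blood cells moved with the label in the same libraries. The summed TPM of 7 B-lineage markers was 131 to 996 in the controls and 2.34 to 18.1 in the libraries labelled Reg1Δ/Δ, and all 6 that were tested were lower. Of 8 neutrophil markers 6 were lower, with sums of 2979 to 12152 and 308 to 968 TPM. All 3 monocyte markers were lower, with sums of 128 to 295 against 11.7 to 178 TPM in the first experiment, which overlapped. In the second the sums were 158 to 164 against 70.6 to 95.7 TPM, which did not. The 3 T-cell markers did not pass the filter and summed to at most 6.20 TPM. Among 5 erythroid markers, Klf1, Gata1 and Epor, which act in red cell precursors, were higher, while the hemoglobin genes Hba-a1 and Hbb-bs were lower. Klf1 went from 90.9 to 282 TPM on average. The sum of the 5 erythroid markers, which the hemoglobin genes dominate, was 1066 to 3556 TPM in the controls and 720.1 to 991 TPM in the libraries labelled Reg1Δ/Δ. Of 3 megakaryocyte markers 2 were lower and Gp1ba was higher. Their sums were 213 to 427 against 79.9 to 95.3 TPM in the first experiment and 72.6 to 73.0 against 18.3 to 25.9 TPM in the second. Of 5 proliferation markers, Ccna2 (0.44) and Ccnb1 (0.49) were higher, and none was lower. Their sum was 479 to 673 TPM in the controls and 767 to 895 TPM in the libraries labelled Reg1Δ/Δ of the first experiment, which did not overlap, and 898 to 906 against 874 to 934 TPM in the second, which did. None of these markers was at 0 in all 5 libraries labelled Reg1Δ/Δ. In bulk RNA, a different mix of cells and a different RNA content per cell cannot be told apart, and the part of these markers, and of the HSC markers above, in the members' rise was not tested.

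Because most members moved together, their promoter windows were searched for short motifs. RefSeq windows on GRCm38.p6, from 250 bases before to 50 after an annotated start, matched 35 of the 40 members by symbol, with 43 windows. Npm1, Bop1, Rrp12, Rrs1 and Fbl had no entry. The E-box CACGTG, which reads the same on both strands and is the motif that Myc and related factors are known to bind, was in the window of 8 of the 35 members (22.9%), namely Grwd1, Imp4, Mybbp1a, Nop2, Pes1, Tsr1, Utp20 and Wdr43. It was in 7.15% of all 32851 windows and in 12.0% of 8285 tested protein-coding genes with a window. Shown are the windows of the 2 members with the highest and the lowest fold change among those 8, Nop2 and Utp20, that of Wdr43, which lies between them, and that of Bysl, the member with the largest rise, which holds no CACGTG. Capitals mark CACGTG. Nop2 lies at chr6:125131633-125131932 on the plus strand, Wdr43 at chr17:71615965-71616264 on the plus strand, Utp20 at chr10:88826765-88827064 on the minus strand and Bysl at chr17:47611443-47611742 on the minus strand, and each sequence is given 5′ to 3′ on its strand.
Nop2: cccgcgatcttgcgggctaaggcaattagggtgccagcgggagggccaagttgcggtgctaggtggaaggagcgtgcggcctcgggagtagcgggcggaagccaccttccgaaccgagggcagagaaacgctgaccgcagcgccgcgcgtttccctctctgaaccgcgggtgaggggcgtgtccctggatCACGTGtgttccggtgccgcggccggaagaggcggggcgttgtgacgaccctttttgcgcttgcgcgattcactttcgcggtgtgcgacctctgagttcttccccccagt
Wdr43: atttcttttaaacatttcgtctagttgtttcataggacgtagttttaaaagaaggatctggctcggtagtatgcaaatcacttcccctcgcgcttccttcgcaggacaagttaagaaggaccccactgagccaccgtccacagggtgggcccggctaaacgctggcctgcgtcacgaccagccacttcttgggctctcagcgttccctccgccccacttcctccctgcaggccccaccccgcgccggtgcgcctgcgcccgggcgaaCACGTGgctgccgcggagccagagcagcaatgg
Utp20: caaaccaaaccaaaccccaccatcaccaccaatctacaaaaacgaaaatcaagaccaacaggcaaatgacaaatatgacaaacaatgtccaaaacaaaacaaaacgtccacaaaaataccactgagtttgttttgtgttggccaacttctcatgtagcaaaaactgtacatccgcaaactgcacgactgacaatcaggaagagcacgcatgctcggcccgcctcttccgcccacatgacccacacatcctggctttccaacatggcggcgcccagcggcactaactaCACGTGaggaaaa
Bysl: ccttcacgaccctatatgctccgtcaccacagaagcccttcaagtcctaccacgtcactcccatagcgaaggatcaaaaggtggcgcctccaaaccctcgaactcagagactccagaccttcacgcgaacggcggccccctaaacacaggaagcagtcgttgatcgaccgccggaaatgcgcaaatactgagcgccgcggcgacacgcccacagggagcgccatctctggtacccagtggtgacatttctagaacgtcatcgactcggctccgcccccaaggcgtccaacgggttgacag

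The motif began 60 bases before the annotated start in Nop2, 17 bases after it in Wdr43 and 37 bases after it in Utp20. Of the 8 members with CACGTG, 5 were called higher, with a median log2 fold change of 0.38. Among the 27 members with a window and no CACGTG, 24 were called higher, with a median of 0.57. The ETS-type motif CCGGAAG, searched on both strands, was in the window of 12 members (34.3%), against 8.86% of all windows and 21.8% of tested protein-coding genes. GCATGCGC, an NRF1-type motif, was in 1 member (2.86%), against 2.71% of all windows and 6.60% of tested protein-coding genes. AAGATGGC, a YY1-type motif, was in 2 members (5.71%), against 2.75% and 5.76%, and the TATA box TATAAA was also in 2, against 13.6% and 8.07%. None of the 5 motifs contains another. These are matches of letters and no test was made on them. Myc itself was at 225, 152 and 170.0 TPM in the controls and 229.8, 287 and 254 TPM in the libraries labelled Reg1Δ/Δ of the first experiment, and at 189 and 189.5 against 276 and 233 TPM in the second. It rose by 0.47 log2 units (SE 0.13, adjusted p = 0.0124) on the log2 scale, whereas its relative Mycn fell, from 29.5 ± 8.06 to 3.43 ± 1.35 TPM (SD, n = 5 each), with a log2 fold change of −2.81 (SE 0.21, adjusted p = 4.22e-06).

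RNA polymerase I and its factor were represented by 4 members, of which 3 rose. Polr1b, the second largest subunit of the enzyme, had the highest fold change. It was at 29.6, 19.2 and 27.6 TPM in the controls and 25.5, 34.6 and 35.6 TPM in the libraries labelled Reg1Δ/Δ of the first experiment, and at 25.1 and 33.6 against 56.2 and 43.1 TPM in the second. The groups overlapped in the first experiment, in which the lowest library labelled Reg1Δ/Δ lay below 2 controls, and did not overlap in the second. Polr1b rose by 0.49 log2 units (SE 0.18, adjusted p = 0.0408). Its call held without control 1, control 3 or library 1 labelled Reg1Δ/Δ of the first experiment, and was lost without any of the other 7 libraries (adjusted p = 0.0585 to 0.1001). Polr1a, the largest subunit, had the lowest fold change, 0.32 (SE 0.17, adjusted p = 0.134), and was not called. Its levels were 31.4, 23.1 and 24.6 TPM against 26.2, 28.2 and 29.2 TPM in the first experiment, which overlapped, and 29.8 and 45.4 against 64.3 and 54.3 TPM in the second, which did not. Ubtf, which encodes the upstream binding factor that keeps ribosomal DNA open, had the highest mean level of the 4. It was at 45.8, 34.4 and 37.0 TPM in the controls and 47.7, 57.3 and 60.8 TPM in the libraries labelled Reg1Δ/Δ of the first experiment, and at 89.8 and 106 against 131 and 135 TPM in the second. The groups did not overlap in either experiment, and Ubtf rose by 0.47 log2 units (SE 0.12, adjusted p = 0.00724). Polr1e, the subunit also known as PAF53, rose by 0.45 log2 units.

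Of the 4 proteins of the box C/D snoRNPs, which direct 2′-O-methylation of ribosomal RNA or bind U3, 3 rose. Rrp9, the U3-specific protein, was at 60.1, 44.5 and 59.5 TPM in the controls and 85.7, 112 and 91.9 TPM in the libraries labelled Reg1Δ/Δ of the first experiment. The second experiment gave 53.7 and 53.0 against 99.2 and 84.1 TPM. Levels in the controls were alike between the experiments and all libraries labelled Reg1Δ/Δ lay above them. Rrp9 rose by 0.79 log2 units (SE 0.12, adjusted p = 0.000524), with 0.81 in the first experiment alone and 0.77 in the second. Nop56, a core scaffold protein of these particles, had the highest mean TPM, 698 over all 10 libraries, but its level differed between the experiments. It was at 862, 746 and 801 TPM against 1204, 1138 and 1202 TPM in the first experiment and at 247 and 167 against 301 and 309 TPM in the second. The controls of the experiments thus stood far apart, yet within each experiment the groups were separated, and Nop56 rose by 0.57 log2 units (SE 0.12, adjusted p = 0.00266). Nop58, the partner of Nop56, had the lowest fold change of the 4 and was not called, at 0.46 (SE 0.18, adjusted p = 0.0529). Its levels overlapped in the first experiment, at 245, 396 and 288 TPM in the controls and 372, 483 and 299.8 TPM in the libraries labelled Reg1Δ/Δ, and did not overlap in the second, at 294 and 360.4 against 529.9 and 507 TPM. It passed without control 2 (adjusted p = 0.0144) or without library 3 labelled Reg1Δ/Δ (adjusted p = 0.0229) of the first experiment. Fbl, fibrillarin, the methyltransferase itself, rose by 0.63 log2 units.

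All 4 proteins of the box H/ACA snoRNPs, which direct pseudouridylation, rose, and none of their groups overlapped in either experiment. Nhp2, a core RNA-binding protein, changed most. It was at 120.2, 111 and 149 TPM in the controls and 249, 234 and 267 TPM in the libraries labelled Reg1Δ/Δ of the first experiment, and at 181 and 146 against 277 and 277 TPM in the second. Nhp2 rose by 0.90 log2 units (SE 0.12, adjusted p = 0.000178), from 141 ± 27.4 to 261 ± 18.9 TPM (SD, n = 5 each). Dkc1, dyskerin, the pseudouridine synthase, had both the lowest fold change and the highest mean TPM of the 4. Its level was 454, 389 and 427 TPM against 615, 614 and 526 TPM in the first experiment and 122 and 115 against 156 and 174 TPM in the second. Levels in the second experiment were lower in both groups, yet Dkc1 rose by nearly the same amount in each, 0.46 in the first experiment alone and 0.47 in the second, and by 0.47 (SE 0.10, adjusted p = 0.00260) over both. Gar1 and Nop10, the other core proteins, rose by 0.68 and 0.48 log2 units.

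The small subunit processome and its partners gave both the largest rise and, before any rescaling, the only value below 0. Of 10 members, 7 rose. Bysl, bystin, a factor of late small subunit maturation, is encoded by the minus strand of chromosome 17 (GRCm38, 47599331 to 47611492). It was at 14.4, 8.57 and 16.2 TPM in the controls and 24.7, 27.7 and 29.8 TPM in the libraries labelled Reg1Δ/Δ of the first experiment, and at 19.3 and 20.7 against 40.0 and 38.5 TPM in the second. The groups stood well apart in both, and Bysl rose by 1.01 log2 units (SE 0.16, adjusted p = 0.000522), which is 2.01-fold. Noc4l, a partner of Nop14 in nuclear export of the small subunit, had the highest mean TPM of the 10. It was at 107, 79.6 and 113 TPM against 179.6, 178 and 198 TPM in the first experiment and at 55.9 and 49.8 against 113 and 103 TPM in the second. All libraries labelled Reg1Δ/Δ lay above all controls of their experiment, and Noc4l rose by 0.95 log2 units (SE 0.12, adjusted p = 0.000131). Utp20, a large scaffold protein of the processome encoded by the minus strand of chromosome 10 (88746607 to 88826804), had the lowest value. It was at 4.73, 5.39 and 8.64 TPM in the controls and 4.26, 4.52 and 5.03 TPM in the libraries labelled Reg1Δ/Δ of the first experiment, and at 25.4 and 11.6 against 20.8 and 19.1 TPM in the second. The groups overlapped in both, and the log2 fold change was −0.12 (SE 0.23, adjusted p = 0.672), with a sign that turned to 0.51 after quantile normalization and 0.18 after median-of-ratios scaling. The gap between control 1 and control 2 of the second experiment was wider than that between its group means. The other members that were not called were Heatr1, another large scaffold protein, at 0.17, and Tsr1, a GTPase-like factor of small subunit maturation, at 0.24. Wdr75 and Wdr43, which belong to the subcomplex that joins the nascent transcript first, rose by 0.75 and 0.53 log2 units. Imp4, of the Mpp10 complex at the U3 duplex, rose by 0.58 log2 units, Nop14, the partner of Noc4l, by 0.57 and Rrp12, an export factor, by 0.56. The call of Rrp12 (adjusted p = 0.0236) was lost without control 2 of the second experiment, libraries 2 or 3 labelled Reg1Δ/Δ of the first or library 1 labelled Reg1Δ/Δ of the second (adjusted p = 0.0504 to 0.0607).

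**Figure D3:**
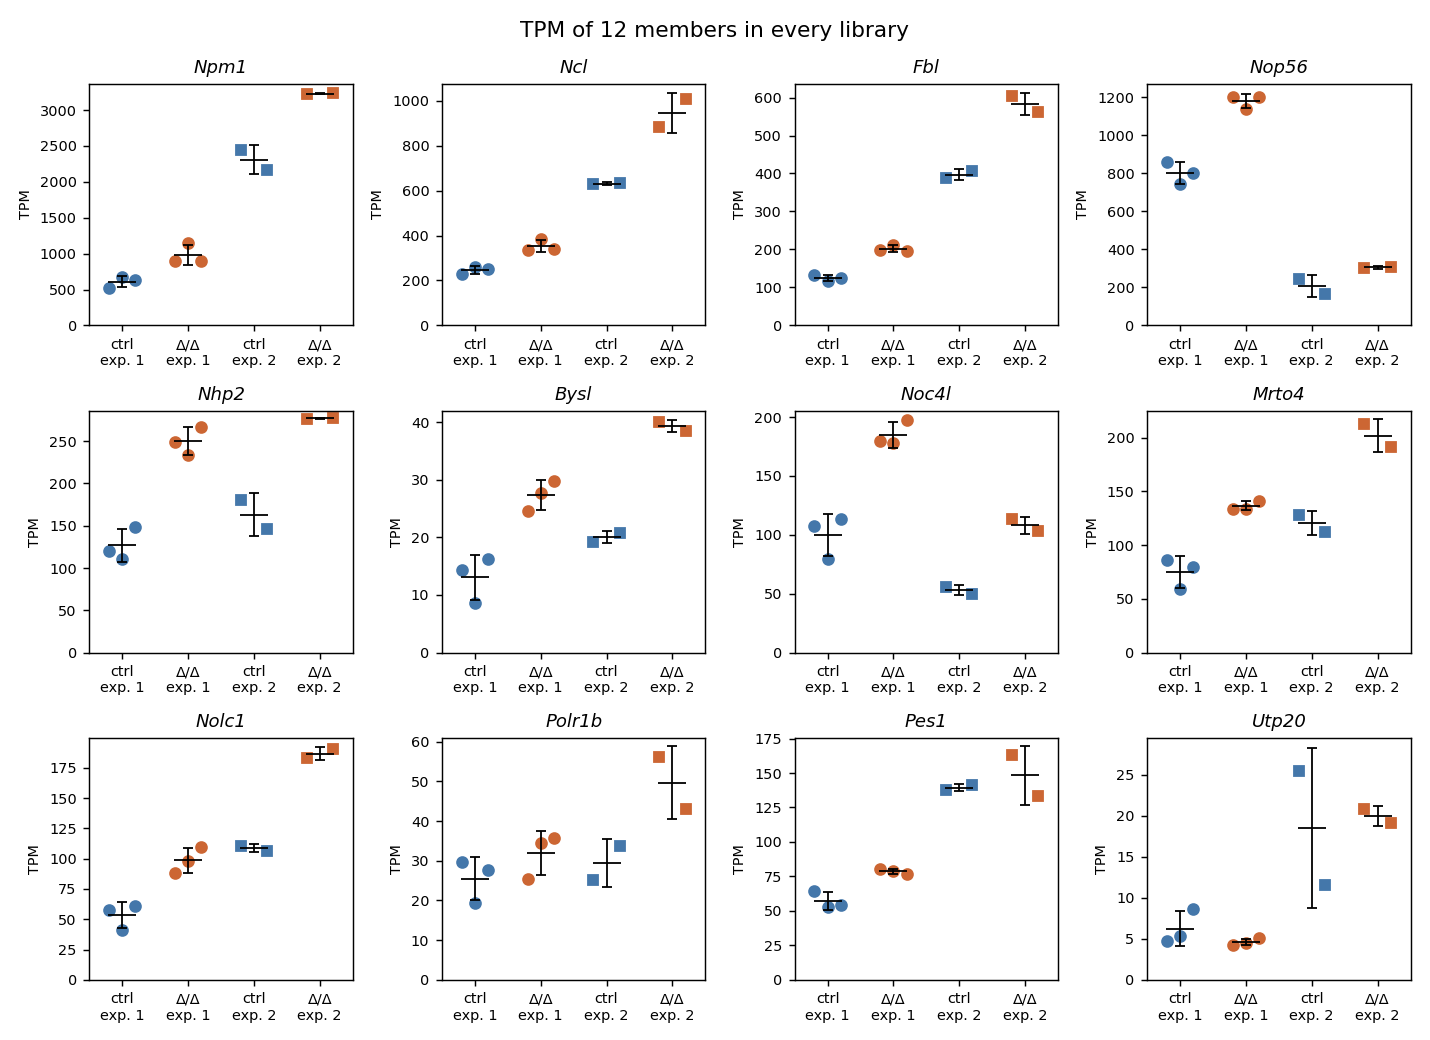
TPM of 12 members in every library (blue, controls, orange, labelled Reg1Δ/Δ, circles, first experiment, squares, second), with the mean and SD of each group (n = 3 or 2) in black. The groups are apart in both experiments for Npm1, Ncl, Fbl, Nop56, Nhp2, Bysl, Noc4l, Mrto4 and Nolc1, and overlap in at least 1 experiment for Polr1b, Pes1 and Utp20.

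All 13 members that assemble the large subunit rose, and the groups were separated in both experiments in 8 of them. Mrto4, a factor that resembles the stalk protein P0 and keeps its place on the nascent subunit, changed most. It was at 86.6, 58.8 and 79.9 TPM in the controls and 134, 134 and 141 TPM in the libraries labelled Reg1Δ/Δ of the first experiment, and at 128 and 112 against 213 and 191 TPM in the second. With no overlap in either, Mrto4 rose by 0.82 log2 units (SE 0.12, adjusted p = 0.000394). Gnl3, nucleostemin, a nucleolar GTPase, had the highest mean TPM of the 13. Its level was 287, 230.4 and 294 TPM against 474, 475 and 500.4 TPM in the first experiment and 135 and 129 against 211 and 218 TPM in the second. Gnl3 rose by 0.78 log2 units (SE 0.10, adjusted p = 0.000148), with the groups apart in both experiments. Pes1, the pescadillo protein of the PeBoW complex, had the lowest fold change. It was at 64.7, 52.8 and 54.4 TPM in the controls and 80.7, 78.7 and 76.6 TPM in the libraries labelled Reg1Δ/Δ of the first experiment, and at 137 and 141 against 163 and 133 TPM in the second. The groups were apart in the first experiment, whereas 1 library labelled Reg1Δ/Δ of the second was below both of its controls. Pes1 rose by 0.31 log2 units (SE 0.12, adjusted p = 0.0496), just within the threshold, and its call held only without control 1, control 2 or library 2 labelled Reg1Δ/Δ of the second experiment (adjusted p without each of the other 7 = 0.0566 to 0.112). The other proteins of its complex, Wdr12 and Bop1, rose by 0.78 and 0.59 log2 units. Nop2, a ribosomal RNA methyltransferase, rose by 0.76 log2 units, and Rrs1, which helps to bring in the 5S particle, rose by 0.68 log2 units. Nop16 and Nip7, factors bound to early large subunit precursors, rose by 0.71 and 0.53 log2 units, and Grwd1, a histone and ribosomal protein chaperone, by 0.46. Noc3l and Noc2l, which act in transport of the precursor through the nucleus, rose by 0.44 and 0.39 log2 units, and Ebna1bp2, a processing factor that binds Rrs1 in yeast, by 0.39. The calls of Noc2l and Ebna1bp2 were lost without some libraries. Noc2l (adjusted p = 0.0277) missed the threshold without control 2 or library 3 labelled Reg1Δ/Δ of the first experiment or any library of the second (adjusted p = 0.0522 to 0.0711). Ebna1bp2 (adjusted p = 0.0233) missed it without control 2 or libraries 1 or 2 labelled Reg1Δ/Δ of the first experiment or control 2 of the second (adjusted p = 0.0532 to 0.0578).

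Among the 5 other nucleolar factors, 4 rose. Nolc1, a chaperone of snoRNPs that travels between the nucleolus and Cajal bodies, changed most. It was at 57.8, 40.9 and 61.0 TPM in the controls and 88.1, 98.3 and 109 TPM in the libraries labelled Reg1Δ/Δ of the first experiment, and at 111 and 106 against 183 and 191 TPM in the second. No overlap was seen in either, and Nolc1 rose by 0.85 log2 units (SE 0.13, adjusted p = 0.000420). Npm1, nucleophosmin, a histone and ribosome chaperone of the granular component encoded by the minus strand of chromosome 11 (33152287 to 33163206), had the highest TPM of all 40 members. Its level was 523, 681 and 630.1 TPM against 900.3, 1147 and 892 TPM in the first experiment and 2449 and 2164 against 3228 and 3231 TPM in the second. Levels in the second experiment were several times higher in both groups, and within each experiment the groups were apart. Npm1 rose by 0.60 log2 units (SE 0.12, adjusted p = 0.00220). Mybbp1a, a nucleolar Myb-binding protein, had the lowest fold change, 0.27 (SE 0.13, adjusted p = 0.115), and was not called. It was at 97.7, 82.5 and 95.9 TPM in the controls and 82.5, 103 and 111 TPM in the libraries labelled Reg1Δ/Δ of the first experiment, which overlapped, and at 109 and 119 against 180.0 and 153 TPM in the second, which did not. Without library 1 labelled Reg1Δ/Δ of the first experiment its adjusted p was 0.0381. Ddx21, a nucleolar RNA helicase, rose by 0.80 log2 units, and Ncl, nucleolin, by 0.55.

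Levels of many members differed between the experiments. In 20 of the 40, the log2 ratio of the controls between the experiments was larger in size than the log2 fold change between the groups. The ratio of the mean TPM in the controls of the second experiment to that in the first ran from 0.258 for Nop56 to 4.85 for Ddx21, and was above 1 in 26 of the 40. The controls of the experiments did not overlap in 28 of the 40 members, near the 65.4% of all tested genes for which this was so. The correlation of log2(TPM + 1) over the 40 members was 0.969 to 0.995 for pairs of libraries of the same experiment and 0.776 to 0.837 for pairs from different ones. These are correlations across genes, which are not independent replicates. Without the experiment in the model, 15 of the 40 members were called higher, against 5.56% of all tested genes.

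The experiments also differed in which transcripts of a gene the TPM was assigned to. The 40 members have 242 transcripts in the files, of which 99 are labelled protein-coding, 90 retained intron, 27 processed transcript and 26 nonsense-mediated decay. Protein-coding transcripts held 54.1% to 56.6% of the members' TPM in the 6 libraries of the first experiment and 81.1% to 82.3% in the 4 of the second. Over all genes the shares were 46.2% to 49.1% and 73.5% to 81.1%. The groups overlapped within the first experiment, at 54.7% ± 0.896 (SD, n = 3) in the controls and 56.0% ± 1.09 (SD, n = 3) in the libraries labelled Reg1Δ/Δ of the first. The leading transcript was the same in both experiments in 26 members. It was a protein-coding one for 26 members in the first and for 34 in the second, with a median length of 1742 and 2544 bases. Weighted by TPM, the mean transcript length was longer in the second experiment in 31 of the 40 members.

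Some members, chosen here after their values were seen, show this closely. In Nop56, a retained-intron transcript of 320 bases was at 289, 263 and 254 TPM in the controls and 422, 382 and 428 TPM in the libraries labelled Reg1Δ/Δ of the first experiment and at 0 in all 4 libraries of the second. Its protein-coding transcript of 1877 bases was at 40.6, 33.8 and 41.9 TPM against 71.6, 69.8 and 75.2 TPM in the first experiment and 133 and 121 against 173 and 179 TPM in the second. The short and the long transcript were thus both higher in the libraries labelled Reg1Δ/Δ, though only the long one was detected in both experiments. In Heatr1, a transcript of 193 bases labelled protein-coding was at 25.3, 50.8 and 110.1 TPM in the 3 controls and 42.1, 49.7 and 61.7 TPM in the libraries labelled Reg1Δ/Δ of the first experiment, and at 0 throughout the second. The transcript of 6780 bases was at 11.7, 7.75 and 12.1 TPM in the controls and 7.94, 12.1 and 12.0 TPM in the libraries labelled Reg1Δ/Δ of the first experiment, and at 15.6 and 18.0 against 33.2 and 23.6 TPM in the second. The groups overlapped in the first and not in the second. In Npm1, a transcript of 1192 bases led in the first experiment, with a mean of 559.6 TPM, and was at 2.70 TPM in the second. There a transcript of 966 bases led instead, at 1275 TPM against 10.9 TPM in the first.

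**Figure D4:**
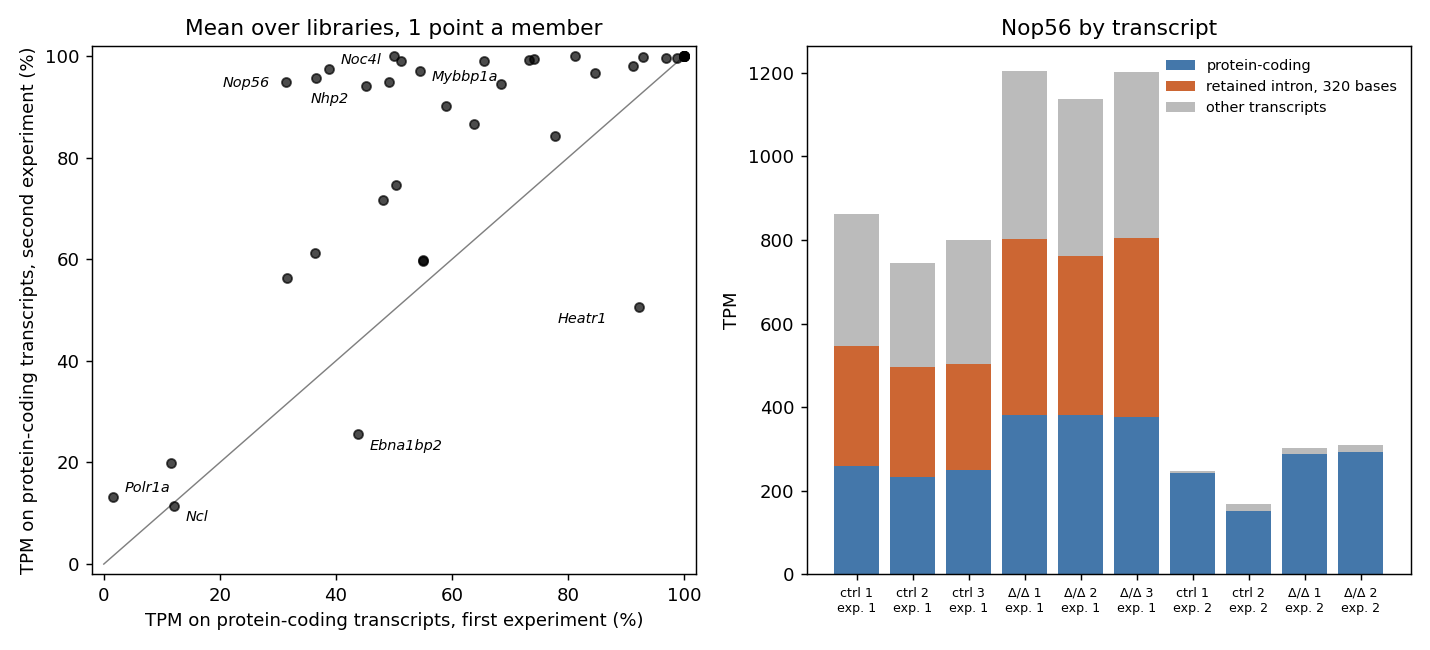
Left, the share of each member's TPM on protein-coding transcripts in the first (x axis) and second experiment (y axis), mean over libraries, with most of the 40 points above the diagonal of equal shares. Right, stacked bars of the TPM of Nop56 in each library by kind of transcript, in which the 320-base retained-intron transcript appears in the 6 libraries of the first experiment and is at 0 in the 4 of the second.

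When TPM was added up over protein-coding transcripts alone, 39 members were tested, 34 were higher and none lower. Of all 10464 genes tested in this setting 19.2% were higher and 4088 genes lower. The members had a median log2 fold change of 0.56 against −0.19 for all genes. Ncl, most of whose TPM lay on a retained-intron transcript of 3072 bases in both experiments, was then at 0.19 (adjusted p = 0.171) and no longer called, as was Ebna1bp2 at 0.13 (adjusted p = 0.598). Nop58 (0.43, adjusted p = 0.0343) and Tsr1 (0.42, adjusted p = 0.0175) passed. With the longest protein-coding transcript of each gene alone, a setting chosen after seeing the data, 26 of 34 tested members were higher, against 18.2% of all 8093 genes tested. Their median was 0.56, and that of all genes −0.14. Wdr12 was then at 0.07, Polr1e at 0.11 and Noc2l at −0.20, none of them called. Other members were not called in this setting either. In Wdr12, Polr1e and Noc2l the longest transcript is not the leading one. That of Noc2l, of 2813 bases, was at most 3.72 TPM in any library and listed at 0 in 2 of the 10. Its transcript of 2785 bases was at 93.1, 73.9 and 103 TPM in the controls and 99.3, 105 and 119 TPM in the libraries labelled Reg1Δ/Δ of the first experiment, and at 95.8 and 108 against 162 and 145 TPM in the second, with overlap in the first alone. The longest transcript of Wdr12, of 10012 bases, was at most 1.71 TPM. Its transcript of 2850 bases was at 36.4, 29.3 and 32.9 TPM against 51.7, 54.0 and 51.2 TPM in the first experiment and at 16.5 and 26.5 against 49.7 and 40.6 TPM in the second, with no overlap in either. The longest of Polr1e, of 2986 bases, was at most 1.81 TPM in the first experiment. In the second it was at 7.27 and 3.85 TPM in the controls and 5.11 and 8.82 TPM in the libraries labelled Reg1Δ/Δ. All transcripts of Polr1e together were there at 29.2 and 23.9 against 39.7 and 35.2 TPM.

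Many snoRNAs are known to be made from introns of genes for nucleolar and ribosomal proteins. By GENCODE M21 on GRCm38, 21 snoRNA genes lie within 7 of the 40 members (17.5%), Dkc1, Gnl3, Ncl, Nop56, Nop58, Tsr1 and Wdr43. The share among 10937 tested protein-coding genes was 1.76%. Nop56 on chromosome 2 holds 5 of them, among them Snord110 (130275506 to 130275573, plus strand) and Snord57 (130278016 to 130278087). In Gnl3 on chromosome 14, minus strand, lie Snord19 (31016206 to 31016281) and Snord69 (31014287 to 31014366). Of the 7 host members 5 were called higher, with a median log2 fold change of 0.53, and of the 33 others 29, with a median of 0.58. Reads of a snoRNA and of the intron around it share sequence, and for Gnl3, Ncl, Nop56 and Nop58 some transcripts hold a snoRNA gene within an exon.

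Copies of the members elsewhere in the genome could take some of their reads. Of 15 members with annotated pseudogenes of at least 90% identity, Npm1 had 9, whose TPM summed to 21.4% to 28.4% of its own in the 6 libraries of the first experiment and to at most 0.283% in the 4 of the second. Nearly all of this in the first experiment was on Gm14681. It was at 129.8, 191 and 153 TPM in the controls and 231, 245 and 187 TPM in the libraries labelled Reg1Δ/Δ of the first experiment. In the second it was at 0 in both controls and at 0.969 and 4.43 TPM in the libraries labelled Reg1Δ/Δ. The level of Npm1 in the first experiment is therefore uncertain, and the part of this copy in its fold change was not tested. For Wdr12, the copies, nearly all Gm48789, a pseudogene transcript of 129 bases, had more TPM than the gene itself in all 6 libraries of the first experiment and in 1 of the 4 of the second, so its level in the first is uncertain too. Of the other 13 members, Nop10, Gar1 and Nhp2 have no copy with a row in the files, so theirs were not measured. In the remaining 10, the copies with a row had a mean TPM over the 10 libraries of at most 0.5% of that of the member.

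To see how far the pattern reached, 109 other ribosome biogenesis genes were examined. All 109 were tested, and 65 were higher and 2 lower, against 15.0% and 37.9% of all tested genes, with a median log2 fold change of 0.39. Of 34 other genes of the small subunit processome 22 were higher, with Pno1, a partner of the late small subunit precursor, at the top with 0.96 (SE 0.11, adjusted p = 5.59e-05). It was at 21.9, 19.5 and 25.7 TPM in the controls and 42.1, 44.1 and 47.2 TPM in the libraries labelled Reg1Δ/Δ of the first experiment, and at 52.4 and 43.6 against 94.9 and 91.8 TPM in the second. Of 42 genes of large subunit assembly 23 were higher, with Rpf2, which helps to bring in the 5S particle, at 0.93 (SE 0.11, adjusted p = 0.000102). The RNA exosome, which trims ribosomal RNA, had 9 of 14 genes higher, led by Exosc8 at 0.93 (SE 0.13, adjusted p = 0.000282), and snoRNP assembly 7 of 8. RNA polymerase I and its initiation factors were mixed in direction. Of 11 such genes 4 were called higher and 2 lower, with a median of 0.062 and 6 values above 0. The lowest value, −0.51, was of a gene that was not called. Taf1a, at −0.48 (SE 0.20, adjusted p = 0.0643), was not called either. The 2 called lower were Znrd1, a small subunit of the enzyme, at −0.50 (SE 0.13, adjusted p = 0.0105), and Taf1b, a subunit of the initiation factor SL1, at −0.44 (SE 0.16, adjusted p = 0.0454). The log2 fold change of Znrd1 was −0.36 in the first experiment alone and −0.70 in the second, and that of Taf1b −0.35 in the first experiment alone and −0.58 in the second. Taf1b kept its call without control 1 of the second experiment and lost it without any of the other 9 libraries (adjusted p = 0.0515 to 0.0998). Neither was called lower after quantile normalization (−0.37 and −0.15) or median-of-ratios scaling (−0.15 and −0.10), under which none of the 109 was lower.

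The cytosolic ribosomal protein genes, whose products the machinery assembles, are given for comparison. Of 83 such genes 80 were tested, 20 were higher and none lower. Of all tested genes 15.0% were higher, and 20.9% of those in the TPM range of the 40 members. The ribosomal protein genes had a median log2 fold change of 0.24 against 0.57 for the 40 members. The median was 0.36 in the first experiment alone, with 37 called higher against 12.0% of all tested genes, and 0.008 in the second, with none. Their summed level was 43942 to 49291 TPM in the controls and 55873 to 60906 TPM in the libraries labelled Reg1Δ/Δ of the first experiment, and 230444 to 261449 against 232145 to 249235 TPM in the second. The difference between the lists was not tested.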

How the data were processed

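RNA-seq of 10 libraries of CD34- HSCs was used. The authors made cDNA with a SMART-type kit, for which the paper and the labels give different versions, aligned the reads with STAR to GRCm38, used Salmon 0.9.1 with the GENCODE M17 transcripts to estimate TPM, and deposited 1 log2(TPM + 1) value per transcript. TPM was recovered from these log2 values and added up per gene. A gene was tested if 5 or more libraries had a TPM of 1 or above. The test was limma 3.58.1 (lmFit, eBayes, Benjamini-Hochberg adjustment) in R 4.3.3 on log2(TPM + 1), with terms for the label and the experiment. TPM holds no counts, so count tests were not used and the depth is unknown. The experiment of each library was taken from the naming scheme of the sample names. The header of library 2 labelled Reg1Δ/Δ of the second experiment carries the name of library 1. Its values differ, and it was taken as library 2.

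The members and the gene lists were chosen with earlier results of these data known, and no test was made on a list. Genes were named by a rule, which took Zc3h12a, in each role the members with the highest and lowest fold change and the highest mean TPM, the 3 largest rises among other genes of the pathway and those called lower, and Myc and Mycn. The other members were given 1 value each. The alternatives were median-of-ratios scaling and quantile normalization, leaving out the filter or asking for a TPM of 1 or above in all libraries, a pseudocount of 0.1, leaving out the covariate, either experiment by itself, protein-coding transcripts only (also rescaled), the longest protein-coding transcript, eBayes with a trend, a replicate block and each library left out. Coordinates are from GENCODE M21 on GRCm38 and promoter windows from RefSeq. The fit was tested on simulated data. Riok2, a gene of the pathway list, was not analysed here. Python 3.11.15 with pandas 2.3.3 and matplotlib 3.10.9 was used for tables and plots.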

Additional observations from a re-analysis of the deposited data

How the results depend on the processing

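The counts of 34 members higher and 0 lower kept their side in most settings, and none of the 23 settings called a member lower. The number higher was 15 without the experiment covariate and 12 in the second experiment alone, where 5.56% and 3.51% of all genes were higher, against 15.0%. In the other settings it was between 26, of 34 tested, for the longest protein-coding transcript (18.2% of all genes) and 38 with median-of-ratios scaling (30.9% of all genes), which raised the median log2 fold change of the members from 0.57 to 0.91. Leaving out 1 library gave 30 to 33 members higher, with 12.0% to 15.2% of all genes, 0 lower, and medians of 0.53 to 0.59. With 1 library of a group of the second experiment left out, the lone one was assumed to vary like the others. The interaction called 0 members in every setting in which it was run, and in each without 1 library.

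Utp20 changed sign, to 0.20 in the second experiment alone, 0.51 with quantile normalization, 0.18 with median-of-ratios scaling, 0.019 on protein-coding transcripts and 0.18 on the longest one, and ranged from −0.34 to 0.028 with 1 library left out, the highest without control 3 of the first experiment. Heatr1 was −0.094 in the first experiment alone, for which the cause was not tested. Noc2l was −0.20 on its longest transcript, which was at most 3.72 TPM in any library. The number of other pathway genes lower was 0 with quantile normalization, 0 with median-of-ratios scaling and 1 with the replicate block, against 2, and 1 to 3 with 1 library left out, while 54 to 64 were higher. Leaving out libraries for these genes, and the longest transcript, were chosen after seeing the data.

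With the replicate block, 31 members were higher, with 13.2% of all genes, and 57 of the other pathway genes. The calls of Polr1b, Pes1, Ebna1bp2 and Noc2l were lost under the replicate block and Nop58 was gained, and those of Zc3h12a and Taf1b were lost too. Same-numbered libraries had correlations of their deviations from the group means of 0.033, 0.175 and 0.068 for the 3 numbers of the first experiment and −0.054 for both of the second, which does not establish pairing. The samples share only a number, so this is no sign of a weaker effect. The depth is unknown, so counting error is given for no value.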
